A study of Mus musculus with 18 samples.

Results

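The cytochrome P450 genes of the mouse were followed through 3 tables of DNA methylation. A gene was counted as a member when it was protein-coding, lay on chromosomes 1 to 19 and carried a symbol built as Cyp, a number, a letter and a number, which gave 97 of 20665 protein-coding genes on those chromosomes. A CpG (a cytosine followed by guanine, the place where mammalian DNA is mostly methylated) was assigned to a member when it lay in the gene body or within 5 kb of it, and was tested when at least 10 reads covered it in each of the pools compared. By that rule 88 members had a tested CpG in adipose tissue, 84 in hypothalamus and 86 in liver, over 2577, 2121 and 2223 CpGs. The 9 members with no tested CpG in any tissue were Cyp11b2, Cyp2a4, Cyp2a5, Cyp2b19, Cyp2d9, Cyp2g1, Cyp2j12, Cyp4a14 and Cyp4a30b.

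The animals were male offspring of inbred C57BL/6 mice, sampled at 3 weeks of age. In the BPA group the pregnant dams had received bisphenol A, a plastics chemical with oestrogen-like activity, in corn oil by oral gavage at 5 mg per kg per day from day 1 to day 20 after conception, and in the control group (labelled WT) they had received corn oil alone. Gonadal adipose tissue, hypothalamus and liver were profiled by reduced representation bisulfite sequencing, with 3 control and 3 BPA samples of each tissue. The authors deposited each group of 3 as 1 pool, so every value below is a share of pooled reads, every interval and p-value covers counting error only, and the spread between animals is unknown. BPA offspring came from 4 litters and control offspring from 3, per the labels, and which litter a sample came from is not given. The pool numbered 0 was taken as control from the order of names in a label. If that reading were reversed, each direction between BPA and control would turn.

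Cytochrome P450 enzymes are haem proteins that insert an oxygen atom into their substrates, with electrons supplied by the reductase Por or by the ferredoxin pair Fdxr and Fdx1. Families 1 to 3 mainly oxidise drugs, pollutants and other foreign compounds in the liver, family 4 and the Cyp2j enzymes act on fatty acids and eicosanoids, and single-purpose enzymes make and break down steroids, bile acids, vitamin D and retinoic acid. Many are transcribed mainly in hepatocytes, the main cells of the liver, and methylation of CpGs near a gene's start generally goes with low transcription.

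The RRBS libraries gave deep coverage of these genes. A median member CpG was covered by 158 control and 180 BPA reads in adipose tissue, by 112 and 117 in hypothalamus and by 154 and 136 in liver. Levels followed the tissue labels only in part. Of the hepatocyte markers 6 of 7 were lowest in liver, beside 29.5% of all protein-coding genes. Of the neuron markers 4 of 6 were lowest in hypothalamus, near the 46.6% of all genes. Oligodendrocyte and astrocyte markers were lowest there in 1 of 4 each. Of the adipocyte markers 3 of 7 were lowest in adipose tissue, beside 24.0% of all genes. Of 4 epididymis and testis markers with CpGs shared by the tissues, 2 were lowest in the gonadal adipose pool. Lcn8 stood there at 64.1% in control reads against 92.2% in hypothalamus and 92.5% in liver. Ddx4 and Sycp3 went the other way and were highest in adipose tissue, at 75.0% and 82.1%. Of 3 Leydig cell and adrenal markers with shared CpGs, 1 was lowest in adipose tissue.

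Start sites of P450 genes held few CpGs. RefSeq promoter windows, 250 bases before to 50 bases after a start, were on hand for 75 of the 97 members in 85 windows, and the median window held 2 CpGs against 7 over all 32817 windows in the table. In 9 member windows (10.6%) there were 10 or more CpGs, against 43.4% of all windows, and 14 member windows held a CpG tested in at least 1 tissue. The sequences of 4 windows are given, all of members described later. Cyp26c1 and Cyp1a1 had promoter CpGs that were more methylated in liver than in adipose tissue. For Cyp1a1 this held against hypothalamus too, while Cyp26c1 had few hypothalamus reads there. Cyp46a1 and Cyp4v3 had CpG-rich promoters whose tested CpGs had low methylation in every tissue. Each run is the 250 bases before the start from RefSeq (GRCm38.p6), and capitals mark the CpGs tested in at least 1 tissue.
Cyp26c1, chr19:37685430-37685679, + strand: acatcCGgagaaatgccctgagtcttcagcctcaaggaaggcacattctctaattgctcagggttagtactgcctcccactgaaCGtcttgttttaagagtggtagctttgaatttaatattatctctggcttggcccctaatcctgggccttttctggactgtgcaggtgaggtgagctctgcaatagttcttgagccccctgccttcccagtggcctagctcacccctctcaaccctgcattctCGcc
Cyp1a1, chr9:57697363-57697612, + strand: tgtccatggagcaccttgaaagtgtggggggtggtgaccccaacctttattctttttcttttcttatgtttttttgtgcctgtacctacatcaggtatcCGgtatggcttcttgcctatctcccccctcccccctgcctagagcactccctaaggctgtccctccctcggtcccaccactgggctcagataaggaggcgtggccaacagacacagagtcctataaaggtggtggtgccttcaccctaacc
Cyp46a1, chr12:108334066-108334315, + strand: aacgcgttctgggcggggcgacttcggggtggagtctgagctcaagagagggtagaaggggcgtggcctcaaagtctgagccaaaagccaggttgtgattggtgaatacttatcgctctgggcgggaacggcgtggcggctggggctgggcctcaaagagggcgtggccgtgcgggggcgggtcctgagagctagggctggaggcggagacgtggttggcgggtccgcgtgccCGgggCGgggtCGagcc
Cyp4v3, chr8:45333164-45333413, - strand: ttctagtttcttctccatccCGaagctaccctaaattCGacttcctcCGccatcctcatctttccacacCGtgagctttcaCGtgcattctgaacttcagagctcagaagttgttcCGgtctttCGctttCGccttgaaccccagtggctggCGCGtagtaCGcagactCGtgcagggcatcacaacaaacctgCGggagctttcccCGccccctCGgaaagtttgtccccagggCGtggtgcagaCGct
In the Cyp26c1 window all 3 CpGs of the printed run were tested, and in the Cyp4v3 window all 17. In the Cyp1a1 window 1 of 3 was tested. In the Cyp46a1 window 3 of 23 were tested, all in the last 17 bases before the start, so most of that run was not measured. The letters GCGTG, the core of the element bound by the aryl hydrocarbon receptor, were searched on both strands with no other motif, and occurred in 16 of the 85 member windows and in 32.4% of all windows. The Cyp1a1 window holds them, at a place other than its tested CpG.

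In adipose tissue 18 of 2577 P450 CpGs were called between the BPA and control pools. A CpG was called at an adjusted p under 0.05, from the deposited Fisher's exact test with Benjamini-Hochberg adjustment over all nuclear CpGs, if the levels were also 5 or more percentage points apart. Of the 18, 6 were higher and 12 lower in BPA. The called share was 0.698% of P450 CpGs, beside 0.545% of all tested CpGs on chromosomes 1 to 19. Higher calls made 0.233% against a background of 0.259%, and lower calls 0.466% against 0.286%. A called CpG was found in 17 of 88 member genes (19.3%), beside 24.3% of all protein-coding genes. The pools in adipose tissue differed by more than counting error at large: squared differences were 2.02 times what counting predicts, against 1.19 times in hypothalamus and 1.25 in liver. With p-values scaled by that excess, 0 of the 18 calls passed, and of all CpGs 0.00145% did.

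**Figure D1:**
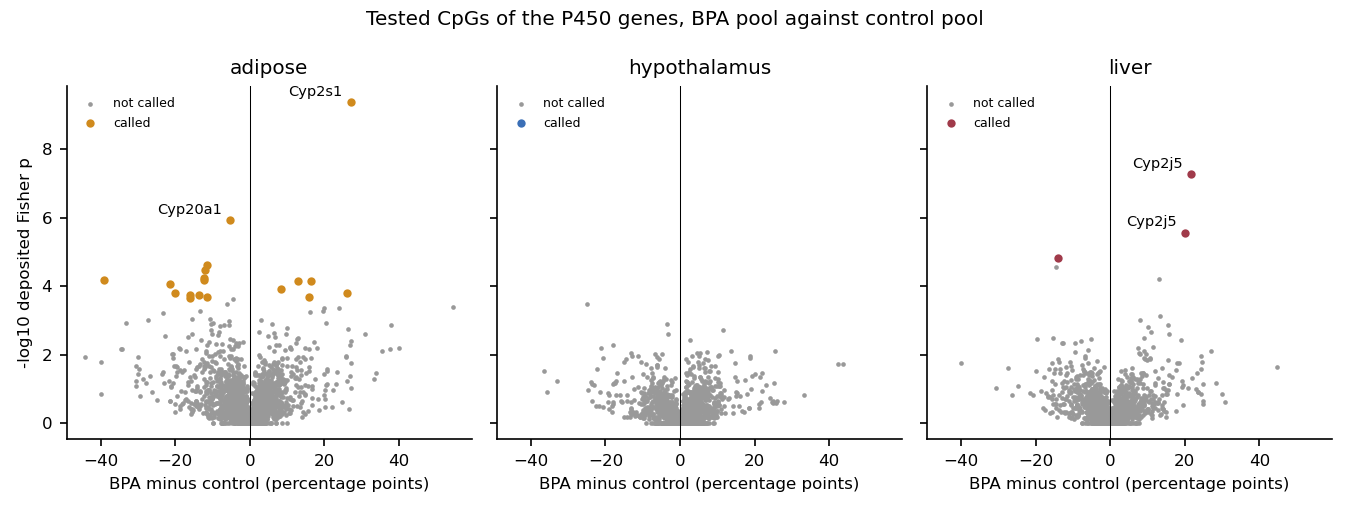
Each point is a tested P450 CpG, with the difference in methylation level between the BPA and control pools on the x axis (percentage points) and minus log10 of the deposited Fisher p on the y axis, in 1 panel per tissue. Coloured points passed the call rule: 18 in adipose tissue, 0 in hypothalamus and 3 in liver.

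Among bile acid and oxysterol enzymes, 2 of 272 CpGs were called in adipose tissue (0.735%, beside the 0.545% of all CpGs). Cyp39a1, an oxysterol hydroxylase of bile acid synthesis, had a gene-body CpG (chr17:43678867) at 72.0% of 50 control reads and 98.1% of 52 BPA reads, a difference of 26.1 points (95% interval 12.7 to 39.8, adjusted Fisher p = 0.0376). The same CpG was between 94.7% and 100% in all 4 pools of the other tissues, so the control adipose pool was the one that stood apart. Cyp46a1, the cholesterol 24-hydroxylase known for its role in brain neurons, had a gene-body CpG (chr12:108353241) at 28.2% of 362 control reads and 16% of 388 BPA reads, lower by 12.2 points (interval of the difference -18.1 to -6.28, adjusted Fisher p = 0.0243). All 3 other tested CpGs within 150 bp differed in the same direction and went from 27.6% to 21.0% of reads. CpGs this close can share reads of the same pool, so here and below neighbours are not independent of the called CpG. No CpG of Cyp7a1, Cyp7b1, Cyp8b1 or Cyp27a1 was called, over 5, 44, 11 and 33 CpGs tested in adipose tissue.

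Steroid hormone and vitamin D enzymes gave 1 call each in adipose tissue, of 157 and 232 CpGs (0.637% and 0.431%). Cyp21a1, the steroid 21-hydroxylase, had the call 258 bp outside its body (chr17:34804684), at 87.5% of 272 control reads and 96.0% of 346 BPA reads, higher by 8.45 points (interval 4.14 to 13.2, adjusted Fisher p = 0.0328). That CpG lies also within 5 kb of C4a and Tnxa, and 2 of its 3 neighbours within 150 bp differed the other way. Cyp27b1, which makes the active form of vitamin D, had a gene-body CpG (chr10:127049732) at 21.4% of 42 control reads and 0% of 69 BPA reads, where a count of 0 allows up to 4.35% (adjusted Fisher p = 0.0283). In hypothalamus the same CpG was at 15.2% of 33 and 28.0% of 50 reads, and in liver at 0% of 23 and 15.4% of 26 reads, so it varied in both directions at low depth. Of 15 other tested CpGs within 150 bp, 7 shared the direction of the call in adipose tissue. None of the CpGs of Cyp11a1, Cyp11b1, Cyp17a1 or Cyp19a1, the aromatase that makes oestrogen, was called in any tissue. Cyp24a1, which breaks down vitamin D, and Cyp2r1, which makes its circulating form, likewise had no call.

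Retinoic acid clearance is carried out by Cyp26a1, Cyp26b1 and Cyp26c1, and each had a called CpG assigned to it in adipose tissue. These were 2 of 490 CpGs (0.408%), since a single CpG counts for both Cyp26a1 and Cyp26c1. In the Cyp26b1 body (chr6:84574507) the level was 34.7% of 265 control reads and 51.0% of 337 BPA reads, higher by 16.3 points (interval 8.37 to 23.9, adjusted Fisher p = 0.0252). Its surroundings differed in the same direction: 16 of 18 other CpGs within 150 bp were higher in BPA, and 5 of the 18 had an unadjusted Fisher p under 0.05. Together they went from 54.2% to 59.8% of reads. These neighbours can share reads with the called CpG and with each other, so their number is not repeated evidence. The other call was a single CpG between Cyp26c1 and Cyp26a1 (chr19:37696197), within 5 kb of both and in the body of Gm32342. It stood at 43.3% of 208 control and 27.1% of 273 BPA reads, lower by 16.2 points (adjusted Fisher p = 0.0451), while its 5 neighbours stood together at 11.1% and 11.2%. In hypothalamus and liver this CpG lay between 16% and 18.8% in all 4 pools, below both adipose pools.

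Fatty acid and eicosanoid enzymes had 4 calls among 596 CpGs in adipose tissue, 1 higher and 3 lower (0.671%, close to the 0.545% of all CpGs). Cyp2u1, a fatty acid hydroxylase, showed the widest difference of the 18 at the lowest depth (chr3:131298193): 100% of 26 control reads and 60.8% of 51 BPA reads (interval of the difference -52.9 to -21.5 points, adjusted Fisher p = 0.0244). Its 4 neighbours within 150 bp, close enough to share its reads, were all lower in BPA, at 73.1% and 56.7% of reads together. Cyp4a12a (chr4:115321721) was at 52.9% of 359 and 39.2% of 388 reads, and Cyp4f39 (chr17:32486806) at 89.6% of 357 and 78.2% of 376. Each had 1 neighbour within 150 bp, which shared the direction at Cyp4a12a and did not at Cyp4f39. Cyp4f14, a leukotriene hydroxylase, was higher at a CpG 299 bp past its listed start (chr17:32916788), at 75.7% of 255 and 88.7% of 291 reads (adjusted Fisher p = 0.0252). Cyp4a12a has a close copy, Cyp4a12b, and how reads that match both genes were placed was not recorded in the labels.

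Xenobiotic enzymes of families 2 and 3 had 6 calls among 513 CpGs in adipose tissue (1.17%, beside 0.545% of all CpGs), all in the Cyp2c and Cyp3a gene clusters. The higher call made 0.195% against a background of 0.259%, and the 5 lower calls 0.975% against 0.286%. Cyp2c66 alone held 3 of them among 128 CpGs: chr19:39135343 went from 65.2% to 81.0%, chr19:39135729 from 94.7% to 83.2% and chr19:39146436 from 93.0% to 80.7%. The 3 CpGs did not share a direction, and the level over the CpGs of Cyp2c66 tested in all tissues was 87.1% in control and 86.7% in BPA. Of their neighbours within 150 bp, 0 of 3, 3 of 6 and 6 of 14 shared the direction of the called CpG. Cyp3a44 (chr5:145780789) was at 87.2% of 117 control and 67.1% of 152 BPA reads. Cyp2c39 (chr19:39523898) was at 90.7% and 78.6%, and Cyp2c55 (chr19:39046884, 4194 bp outside its body) at 81.6% and 65.4%. Neighbours within 150 bp shared the direction at 5 of 10 CpGs for Cyp3a44, 2 of 6 for Cyp2c39 and 1 of 1 for Cyp2c55. Reads from the Cyp2c and Cyp3a clusters can match more than 1 gene, so the source of these levels is uncertain.

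Cyp20a1 and Cyp2s1 made up the remaining calls. Cyp2s1, an epithelial P450 that can act on retinoids, had the smallest p of all P450 CpGs (chr7:25803722): 69.4% of 121 control reads and 96.6% of 148 BPA reads, higher by 27.2 points (interval 18.6 to 36.1, adjusted Fisher p = 3.88e-06). A second Cyp2s1 CpG, chr7:25803818, was at 59.7% of 134 and 79.4% of 131 reads and was not called (adjusted Fisher p = 0.0685). It was among 7 other tested CpGs within 150 bp, of which 4 shared the direction of the called CpG. Only 1 of the 7 had an unadjusted Fisher p under 0.05, and together they went from 69.9% to 73.7% of reads. In liver the called CpG was at 98.7% in both pools, and in hypothalamus at 90.2% and 94.7%, so again the control adipose pool lay lowest. Cyp20a1, a P450 without an established substrate, had a CpG (chr1:60350188) at 100% of 372 control and 94.6% of 336 BPA reads (adjusted Fisher p = 0.00245). The 1 other tested CpG within 150 bp differed the other way.

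**Figure D2:**
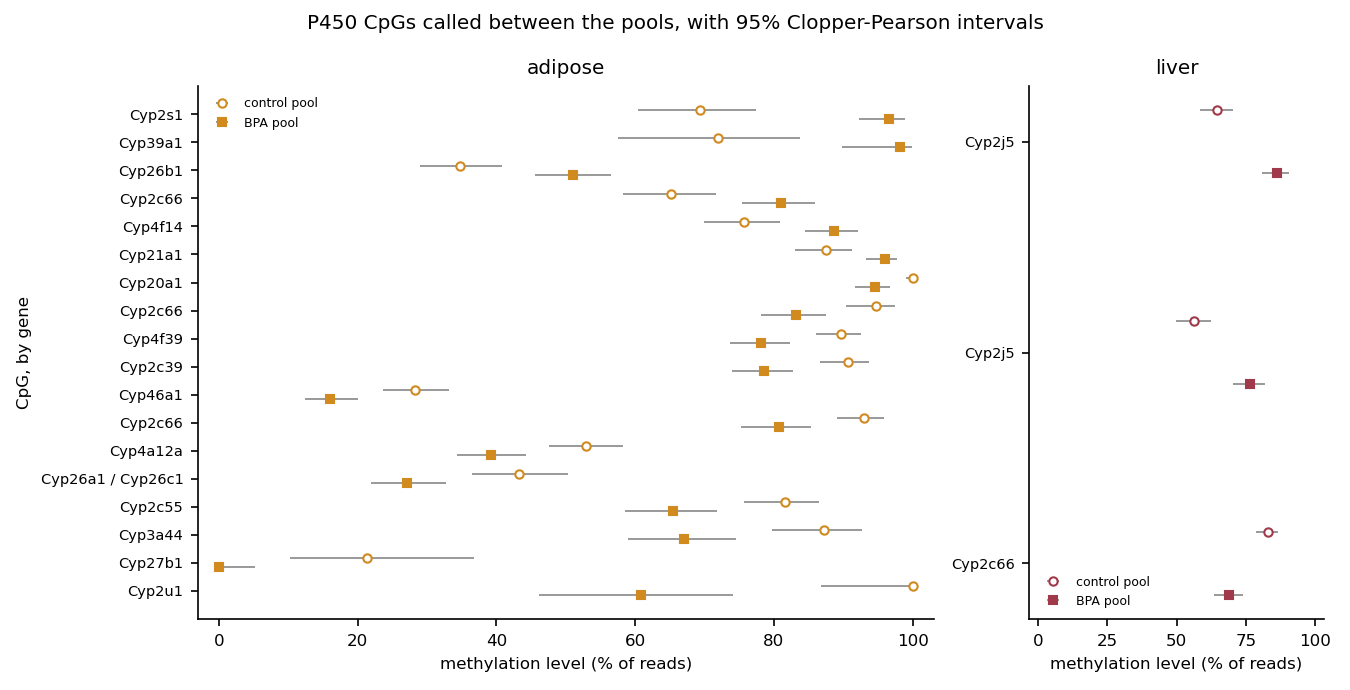
Methylation levels (percent of reads, x axis) of each P450 CpG called between the pools, in adipose tissue (left) and liver (right), with open circles for the control pool, filled squares for the BPA pool and bars for 95% Clopper-Pearson intervals, which cover counting error only. Cyp2s1 shows the gap of 69.4% to 96.6%, Cyp2u1 that of 100% to 60.8%, and the 2 Cyp2j5 CpGs in liver moved together.

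In hypothalamus 0 of 2121 P450 CpGs were called by the deposited Fisher's exact test, beside 0.00487% of all tested CpGs (0.00287% higher and 0.002% lower in BPA). None of 84 genes held a call, beside 0.0705% of all genes. At an unadjusted Fisher p under 0.05 there were 84 P450 CpGs (3.96%), against 3.39% of all CpGs. The authors' deposited credible difference of at least 5 points marked 18 P450 CpGs there (0.849%), beside 0.852% of all CpGs. Of these 10 were higher (0.471%, background 0.376%) and 8 lower (0.377%, background 0.476%). Hypothalamus had the lowest depth of the 3 tissues, and smaller differences may not have been detectable at this depth.

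In liver 3 of 2223 P450 CpGs were called, 2 higher and 1 lower in BPA, which is 0.135% beside 0.0265% of all CpGs. The higher calls made 0.09% against a background of 0.0187%, and the lower call 0.045% against 0.00773%. They lay in 2 of 86 genes (2.33% beside 1.19%), so each share rests on a pair of genes. Cyp2j5, an epoxygenase of arachidonic acid expressed in liver and kidney, held the higher calls, 10 bp apart in its gene body. At chr4:96637716 the level was 56.2% of 256 control reads and 76.4% of 233 BPA reads, higher by 20.1 points (interval 11.8 to 28.0, adjusted Fisher p = 0.0111). At chr4:96637726 it was 64.6% of 254 and 86.2% of 224 reads, higher by 21.6 points (interval 14 to 28.8, adjusted Fisher p = 0.000426). These CpGs are close enough to share reads and are not independent of each other. In adipose tissue and hypothalamus the same CpGs stood between 88.8% and 99.0% in all pools, so the BPA liver pool lay between the control liver pool and the other tissues. With p-values scaled by the excess over counting error, a chi-square test of the read counts left chr4:96637726 called (adjusted p = 0.00981) and chr4:96637716 not (adjusted p = 0.108).

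Cyp2c66 held the lower liver call (chr19:39157035), at 82.8% of 379 control and 68.8% of 317 BPA reads (adjusted Fisher p = 0.0445). That call ended under the scaled p-values and without the deepest 0.1% of CpGs, and 4 of 8 neighbours shared its direction. Just outside the threshold, the Cyp46a1 body held chr12:108352831 at 23.5% of 217 control and 8.81% of 227 BPA liver reads (adjusted Fisher p = 0.0670), 410 bp from the CpG called in adipose tissue. In hypothalamus the former was at 46% and 43.4%.

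Cyp4f14 held the 1 P450 CpG at which the difference between BPA and control passed a test between tissues. At chr17:32916846, 241 bp past the start, adipose tissue had 72.7% of 439 control reads and 62.8% of 532 BPA reads, a difference of -9.88 points. In liver the same CpG was at 36.3% of 512 and 49.4% of 417 reads, a difference of 13.1 points, and in hypothalamus at 61.0% and 61.8%. Neither tissue's own difference was called. A Wald test of the difference between the log odds ratios of adipose tissue and liver gave an adjusted p of 0.00174, over 1615315 CpGs covered in both tissues, of which 796 passed. It was the 1 of 2209 P450 CpGs to pass, a share no higher than the 0.0512% of all CpGs on chromosomes 1 to 19. With variances scaled by the excess over counting error its adjusted p was 0.359. For adipose tissue against hypothalamus and for hypothalamus against liver, 0 P450 CpGs passed the Wald test, beside 0.0277% and 0.00393% of all CpGs. An unadjusted Wald p under 0.05 was found at 124 of 2100 P450 CpGs (5.9%, beside 5.42% of all) and at 85 of 2013 (4.22%, beside 3.67%). For adipose tissue against liver it was found at 154 of 2209 (6.97%, beside 6.57%). The calls in 1 tissue described above are therefore not shown to be limited to it.

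Over whole genes the pools differed little. Among the 65 members with at least 5 CpGs shared by all tissues, the median absolute difference between BPA and control was 0.838 points in adipose tissue, 0.861 in hypothalamus and 1.27 in liver, beside 0.827, 0.892 and 0.862 for all genes of that kind. The widest were Cyp4f18 in adipose tissue, at 50.1% in control and 58.6% in BPA, Cyp11b1 in hypothalamus, at 85.5% and 91.3%, and Cyp2j5 in liver, at 77.9% and 86.2%. The Cyp2j5 value contains its 2 called CpGs among 5.

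Differences between tissues were larger than those between BPA and control. Between the control pools of adipose tissue and liver 401 of 2259 P450 CpGs (17.8%) were called by the same rule with a Fisher's exact test, beside 16.9% of all CpGs. In liver 230 were higher (10.2%, background 8.74%) and 171 lower (7.57%, background 8.12%). Between hypothalamus and liver 346 of 2066 (16.7%) were called, beside 17.3%. In liver 153 were higher (7.41%, background 5.94%) and 193 lower (9.34%, background 11.3%). Adipose tissue and hypothalamus differed at 201 of 2141 (9.39%), beside 13.3%, with 147 higher in hypothalamus (6.87%, background 9.37%) and 54 lower (2.52%, background 3.89%). The BPA pools, which share no sample with the control pools, gave 248 of the 401, 247 of the 346 and 105 of the 201 calls again, all with the same sign. These made up 64.4%, 72.0% and 47.1% of the calls of the BPA pools. A difference between tissues compares mixtures of cells, and a change of level cannot be told apart from a change in which cells are present.

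The Cyp26c1 and Cyp26a1 neighbourhood supplied many of these calls. These enzymes degrade retinoic acid, and the genes lie next to each other on chromosome 19. Of the 401 calls between adipose tissue and liver their 235 tested CpGs gave 122, with liver the higher at 113. Of the 346 between hypothalamus and liver their 225 tested CpGs gave 112, with liver the higher at 104. Of all CpGs 16.9% and 17.3% were called in these pairs, 8.74% and 5.94% as higher in liver. In the Cyp26c1 body the control level over 90 shared CpGs was 23.2% in adipose tissue, 18.8% in hypothalamus and 41.0% in liver. The BPA pools gave 22.4%, 15.6% and 42.7%, in the same order. In its promoter window, which holds the 3 CpGs printed above and 2 more in the 50 bases past the start, the control levels over all 5 were 51.1%, 62.1% and 77.3% of 661, 116 and 322 reads. Each of these CpGs had only 16 to 26 control reads in hypothalamus. At chr19:37685709 hypothalamus lay above liver, at 72.0% against 65.5%, so the order of these tissues in the window is not settled. The Cyp26a1 body was low throughout, at 7.11%, 7.57% and 15.5% over 80 shared CpGs.

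Past the end of Cyp26a1 the order turned around. The 6 shared CpGs in the 5 kb beyond it stood at 79.3% in adipose tissue and 84.9% in hypothalamus but at 20.9% in liver, and all 6 were called lower in liver in both pairs. At chr19:37702812 the control levels were 97.3% of 339, 97.4% of 151 and 28.4% of 335 reads, and the BPA levels 96.0%, 96.4% and 30.1%. In liver, therefore, Cyp26c1 was more methylated and a short stretch past Cyp26a1 much less, in control and BPA pools alike.

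**Figure D3:**
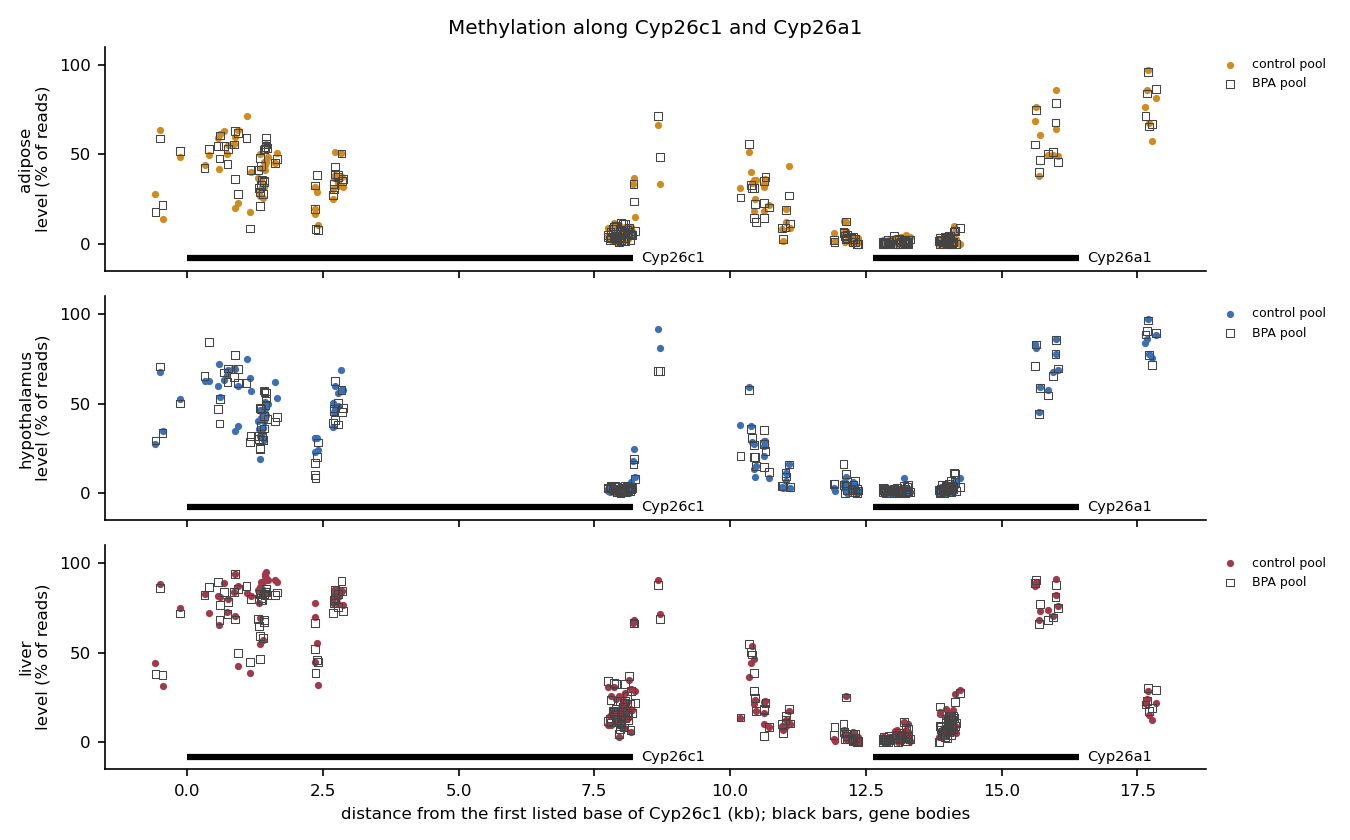
Methylation level (percent of reads, y axis) of the CpGs tested in all 3 tissues along Cyp26c1 and Cyp26a1, by distance from the first listed base of Cyp26c1 (kb, x axis), with filled points for the control pool, open squares for the BPA pool and black bars for gene bodies. In liver the Cyp26c1 body lies higher (41.0% against 23.2% and 18.8%) and the last 6 CpGs, past Cyp26a1, lie lower (20.9% against 79.3% and 84.9%).

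Cyp46a1 was the member with the most calls between adipose tissue and hypothalamus. From 129 tested CpGs it supplied 39 of these 201 calls, 38 of them higher in hypothalamus. Of the 346 calls between hypothalamus and liver it supplied 41, also from 129 CpGs. Of all CpGs 13.3% and 17.3% were called in these pairs. The difference lay in the later part of the gene body (chr12:108348250-108355240), where the control level over 34 CpGs was 14.6% in adipose tissue, 37.2% in hypothalamus and 10.5% in liver, and the BPA level 12.2%, 37.7% and 11.2%. There 27 of 34 CpGs were called higher in hypothalamus than in adipose tissue and 28 of 34 lower in liver than in hypothalamus. At chr12:108352812 the control levels were 7.49% of 494, 40.3% of 308 and 6.21% of 531 reads. Its promoter window, by contrast, stood at 0.526%, 0.763% and 1.36% over the 11 tested of its 31 CpGs. The 5 kb before the gene stood at 0.739%, 2.85% and 4.93% over 16 CpGs, and 4 of these were called higher in liver than in adipose tissue. The leading one, chr12:108333329, lies upstream of the promoter window and was at 1.45% of 346 reads in adipose tissue and 18.0% of 323 in liver (adjusted Fisher p = 6.16e-13). Cyp2u1 also differed in hypothalamus. There 12 of its 50 CpGs were called against adipose tissue, 8 lower and 4 higher in hypothalamus, and 7 of 42 were called higher in liver. At chr3:131302474 the control levels were 64.5% of 290 reads in adipose tissue, 14.6% of 226 in hypothalamus and 56.9% of 313 in liver.

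**Figure D4:**
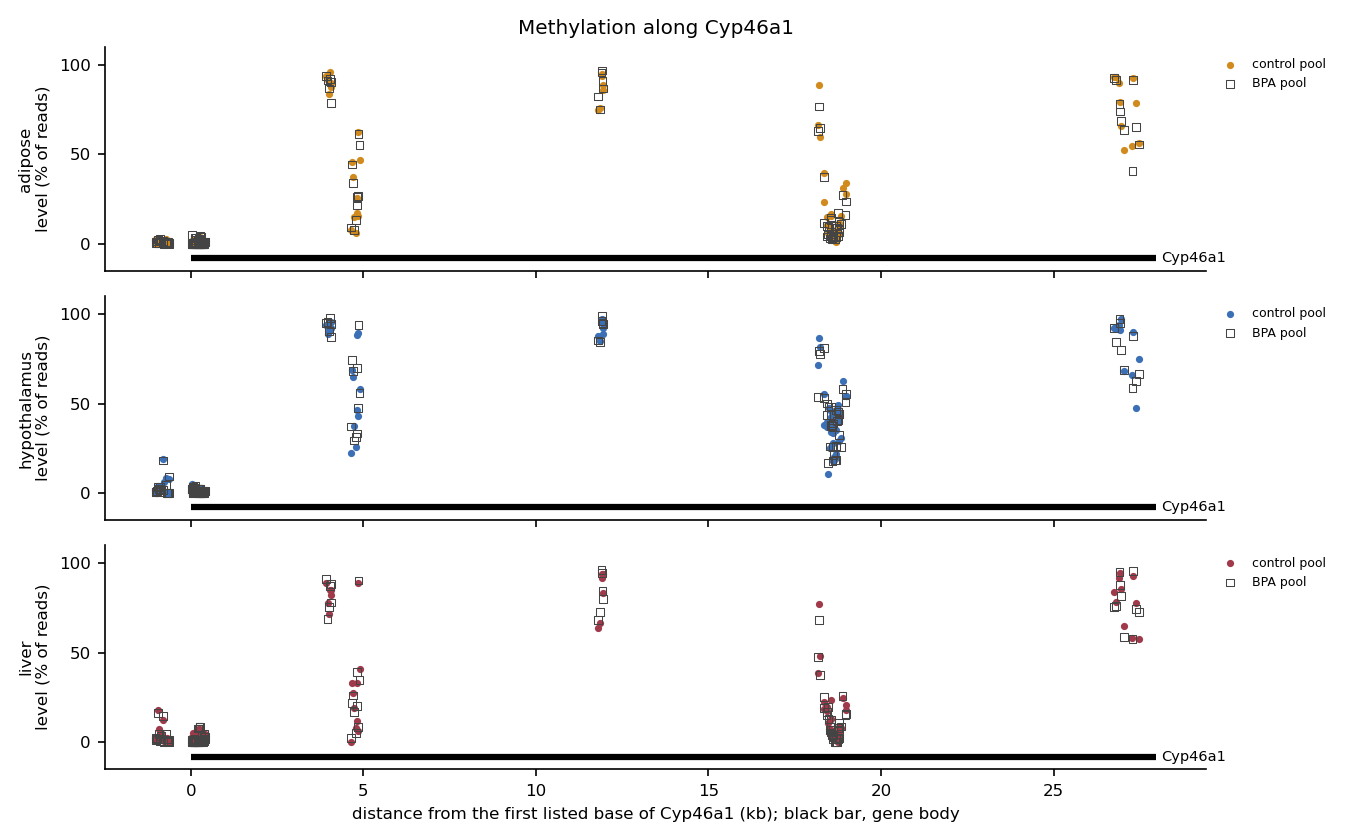
Methylation level (percent of reads, y axis) of the CpGs tested in all 3 tissues along Cyp46a1, by distance from its first listed base (kb, x axis), with filled points for the control pool, open squares for the BPA pool and a black bar for the gene body. The CpGs of the promoter window lie near 0 in every panel (0.526%, 0.763% and 1.36% together), and the dense cluster in the later part of the body lies at 37.2% in hypothalamus against 14.6% and 10.5%.

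Outside Cyp26a1, Cyp26c1 and Cyp46a1, the called shares of P450 CpGs were 7.34% between adipose tissue and hypothalamus, 13.7% between adipose tissue and liver and 11.3% between hypothalamus and liver, beside 13.3%, 16.9% and 17.3% of all CpGs. Leaving those 3 genes out was chosen after these values were seen. Of the 193 remaining calls between hypothalamus and liver, 145 were lower in liver, beside 165671 of 252406 calls over all CpGs. Of the 260 between adipose tissue and liver, 151 were lower in liver, beside 126866 of 263442. The Cyp26a1 and Cyp26c1 calls left out were higher in liver at 104 of 112 and 113 of 122. Leaving them out therefore raises the lower share by itself. With the 3 genes included, 193 of 346 and 171 of 401 calls were lower in liver.

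A small set of members had lower methylation in liver than in both other tissues. Among 84 members with shared CpGs, 7 had a liver level at least 10 points below both other tissues in control and BPA pools. They were Cyp7a1, the rate-limiting enzyme of bile acid synthesis, and the family 2 and 3 enzymes Cyp2b13, Cyp2c70, Cyp2e1, Cyp2f2, Cyp3a13 and Cyp3a25. Each is read from 4 to 6 shared CpGs, so 1 or 2 CpGs weigh heavily. How many of all genes meet the same rule was not counted, so the set is not shown to be particular to P450 genes. Cyp3a13 stood at 69.3% in adipose tissue, 83.1% in hypothalamus and 43.8% in liver. Its CpG chr5:137915578 was at 74.4% of 285, 89.4% of 151 and 22.8% of 263 control reads. Cyp2e1, which oxidises ethanol and many small solvents, stood at 89.2%, 92.4% and 68.8%, and its CpG chr7:140766911 at 88.5%, 91.8% and 54.8%.

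Cyp7a1 stood at 76.9%, 88.2% and 53.6% over 5 CpGs. Its CpG chr4:6268276 was at 62.4% of 274, 93.6% of 125 and 20.6% of 228 control reads, called in both pairs with liver (adjusted Fisher p = 1.08e-19 against adipose tissue and 2.59e-41 against hypothalamus). The other Cyp7a1 CpGs called were less far apart, with chr4:6268492 at 86.7% and chr4:6272561 at 71.2% in liver. Cyp7b1, the oxysterol 7-hydroxylase, had 4 CpGs called lower in liver in each pair, of 38 tested against adipose tissue and 28 against hypothalamus. These shares were near the 8.12% and 11.3% of all CpGs called lower in liver. The leading Cyp7b1 CpG, chr3:18095431, was at 86.9%, 62.7% and 30.1% of control reads, and chr3:18095413 at 89.2%, 88.8% and 74.7%. The gene as a whole stood at 86.6%, 90.7% and 81.7%.

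Of the hepatocyte markers 6 of 7 were higher in the BPA liver pool than in the control pool, by a median of 1.52 points over the 7. The widest was Ttr, at 38.9% and 44.1%, and Fgb was at 23.7% and 25.2%. Over all protein-coding genes the median difference in liver was also above 0, at 0.219 points. The share of all genes higher in the BPA liver pool was not counted, so 6 of 7 has no background beside it. None of the 71 tested CpGs of the markers was called. Their part in the P450 values of the liver pools, those of Cyp2j5 included, was not tested. At Cyp7a1 chr4:6268276 the liver pools were at 20.6% and 28.6%, and at Cyp7b1 chr3:18095431 at 30.1% and 40.9%. Neither CpG was called, and both are named for their low level in the control liver pool, so these differences are a description.

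Cyp1a2, the liver-enriched aryl hydrocarbon inducible enzyme, was also lowest in liver, at 90.4%, 92.3% and 80.7%. Of its 20 CpGs 7 were called against adipose tissue and 3 against hypothalamus, all lower in liver (background 8.12% and 11.3%). Its CpG chr9:57682175, 1480 bp past the listed start, was at 91.6% of 83, 100% of 16 and 44.1% of 34 reads. Other liver enzymes did not have that order. Cyp3a11, a main drug-metabolising P450 of mouse liver, stood at 84.2%, 83.9% and 87.3% over 3 CpGs, and Cyp8b1, which makes cholic acid, at 87.7%, 87.2% and 89.0% over 4. Of the 84 members with CpGs shared by all tissues, 34 were lowest in liver, 27 in hypothalamus and 23 in adipose tissue, where 29.5%, 46.6% and 24.0% of all genes were lowest.

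Cyp1a1, the inducible enzyme that oxidises polycyclic aromatic pollutants, showed the opposite order to Cyp1a2 at its promoter. The CpG 151 bp before its start, capitalised in the printed window, was at 21.3% of 371 control reads in adipose tissue, 21.6% of 306 in hypothalamus and 49.5% of 408 in liver. It was called between liver and adipose tissue (adjusted Fisher p = 1.09e-14) and between liver and hypothalamus (5.60e-13). The BPA pools gave 24.7%, 19.7% and 56.7%. Cyp1b1 was low in every tissue, at 6.64%, 7.71% and 7.59%. Neither gene had a CpG called between BPA and control, over 69 and 68 CpGs tested in adipose tissue.

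Of the 5 steroid hormone enzymes with CpGs shared by all tissues, Cyp11a1 and Cyp17a1 were lowest in liver. Cyp11a1, which cuts the cholesterol side chain to start steroid synthesis, stood at 75.9%, 83.2% and 67.1%, and Cyp17a1 at 64.2%, 70.4% and 55.8%. Cyp19a1 stood at 83.9%, 84.9% and 84.0% over 26 CpGs. Between hypothalamus and liver 23 of 98 CpGs of the steroid hormone enzymes were called (23.5%, beside 17.3% of all CpGs). In liver 19 were lower (19.4%, background 11.3%) and 4 higher (4.08%, background 5.94%). The other pairs lay nearer to the background. Between adipose tissue and liver 25 of 137 were called (18.2%, beside 16.9%), and between adipose tissue and hypothalamus 14 of 98 (14.3%, beside 13.3%). Cyp27a1, the mitochondrial sterol 27-hydroxylase, was lowest in adipose tissue, at 60.4% against 79.0% and 71.7%. Its CpG chr1:74737118 was at 51.2% of 463, 87.3% of 331 and 73.5% of 565 control reads, and at 50.9%, 88.3% and 75.8% of BPA reads.

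Family 4 genes held differences in both directions. The Cyp4f39 start was more methylated in liver: chr17:32452840, 117 bp past the start, was at 6.42% of 327 reads in adipose tissue, 11.2% of 143 in hypothalamus and 35.3% of 221 in liver. Of 67 Cyp4f39 CpGs tested between adipose tissue and liver 16 were called, all higher in liver (background 8.74%). Cyp4f14 differed along its length. Near its start chr17:32916926 was at 84.1% of 201, 65.2% of 181 and 37.9% of 232 reads, and near its other end chr17:32905621 was at 27.0% of 230, 19.8% of 192 and 68.7% of 195. Its level as a whole, 51.5%, 49.9% and 55.0%, does not show this.

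**Figure D5:**
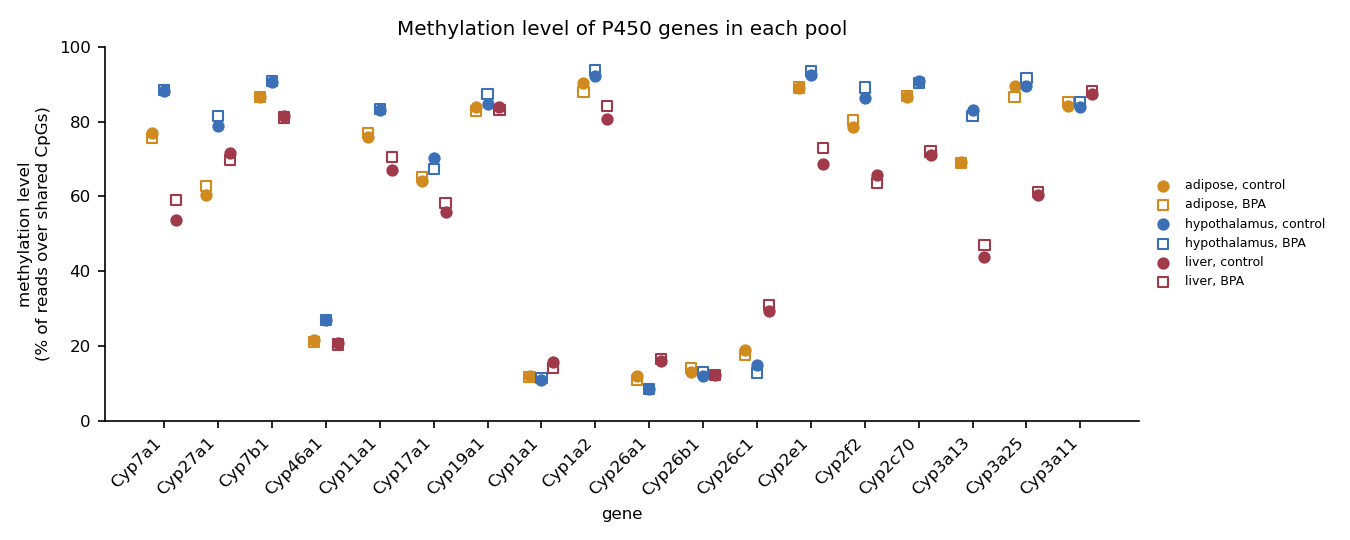
Methylation level of 18 P450 genes (percent of reads over the CpGs tested in all 3 tissues, y axis) in each tissue, with filled circles for the control pool and open squares for the BPA pool. Liver points lie lowest for Cyp7a1, Cyp2e1, Cyp3a13 and Cyp3a25 and highest for Cyp26c1, and control and BPA points lie close together.

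P450 genes as a family had high levels. The median member level over shared CpGs was 81.5% in adipose tissue, 84.6% in hypothalamus and 77.0% in liver, beside 37.5%, 34.3% and 36.3% over all protein-coding genes. CpG by CpG the members did not stand apart: 38.6% of their CpGs in adipose tissue were above 80%, beside 38.9% of all CpGs. Some members, several of them with many CpGs, stood low in every tissue. Cyp26b1 was at 13.1%, 12.1% and 12.2% over 175 shared CpGs, the vitamin D enzymes Cyp24a1 at 12.5%, 9.57% and 8.14% and Cyp2r1 at 10.2%, 10.9% and 8.41%, and Cyp4v3 at 13.7%, 9.13% and 9.31%.

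Genes that work with the P450s were called at shares near the background of 0.545% in adipose tissue. The electron partners had 3 higher and 2 lower calls among 568 CpGs of 6 genes (0.88%), in Cyb5r3, Fdxr and Por. Haem synthesis and breakdown had 2 higher and 2 lower among 782 CpGs of 12 genes (0.512%). Por, the reductase that feeds microsomal P450s, was called at chr5:135717186, with 71.0% of 221 control and 90.4% of 230 BPA reads (adjusted Fisher p = 0.000594), and lower at chr5:135688773. Transcriptional regulators had 6 higher and 9 lower calls among 2193 CpGs of 20 genes (0.684%). P450s outside the symbol rule (Cyp51, Ptgis, Tbxas1) had 1 higher and 1 lower among 345 CpGs (0.58%), both in Tbxas1. In hypothalamus none of the 4 lists had a call. In liver the regulators had 4 calls among 1916 CpGs (0.209%, beside 0.0265%), all higher and all in Esr1, the oestrogen receptor alpha gene, where chr10:4621250 was at 5.69% of 404 control and 22.3% of 391 BPA reads (adjusted Fisher p = 1.59e-07).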

How the data were processed

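DNA from 18 samples (3 control and 3 BPA from each of 3 tissues, 100 ng each) was cut with MspI, treated with bisulfite, amplified and sequenced, per the labels' protocols. Reads were aligned with BSMAP to GRCm38 (mm10), per the submitters' processing notes. Its version and any removal of PCR copies are not given in the sources used here.

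The authors deposited 1 table per tissue with 1 pool per group. Per the file headers, each row gives the read count of a CpG in each pool, the methylation fraction, the deposited p-value of Fisher's exact test, and a nominal and a credible difference. Summed over CpGs, the deposited read counts were 213672622 to 409016549 per pool. Fisher p-values recomputed from counts and fractions lay within 1% of the deposited ones at 99.7% of CpGs in adipose tissue. Positions are 1-based.

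Computed here, with Python 3.11.15, pandas 2.3.3, numpy 2.4.6, scipy 1.17.1 and numba 0.67.0, were levels from fractions times counts, Benjamini-Hochberg adjustment over 1876099, 1569349 and 1628817 nuclear CpGs, Fisher tests between control pools, and Wald tests with 0.5 added to each cell. Intervals are 95% Clopper-Pearson for levels and Newcombe for differences. PCR reads are not independent molecules, so intervals and floors (3 reads of the total) cover counting error only. The steps were tested on simulated data. Gene bounds come from RefSeq (GRCm38.p6), matched by symbol, without exons.

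The design foresaw tests over samples wherever a file held values per sample. The pools left only tests of pooled reads. Genes named were those with the most called CpGs (up to 8 per tissue and direction, up to 6 per tissue pair) and the members of the role groups. The members and lists were chosen with earlier results of these data known. Alternatives changed the read minimum, the minimum difference, the gene bounds, the depth limit, the adjustment set and the p-values.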

Additional observations from a re-analysis of the deposited data

Results flagged for a closer look

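Cyp4f14 held the P450 CpG that passed the Wald test of BPA minus control between adipose tissue and liver, chr17:32916846, with a Wald adjusted p of 0.00174. The difference was -9.88 points in adipose tissue (interval -15.6 to -3.97) and 13.1 points in liver (interval 6.68 to 19.3). Its neighbours within 150 bp differed from each other. The nearest, 58 bp away at chr17:32916788, was at 75.7% of 255 control and 88.7% of 291 BPA reads in adipose tissue, higher and called, and at 74.2% and 73.2% in liver. The other, 80 bp away at chr17:32916926, was at 37.9% of 232 control and 53.5% of 202 BPA reads in liver and at 84.1% and 85.3% in adipose tissue. With variances scaled by the excess over counting error the adjusted p was 0.359.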

How the results depend on the processing

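Under most alternatives the counts of P450 CpGs stayed within 1.5 times their value. With p-values scaled by the excess over counting error, adipose calls went from 18 to 0 (0.00145% of all CpGs) and liver calls from 3 to 1 (0.045%, beside 0.0115%), and the Wald test between tissues went from 1 to 0. The authors' deposited credible difference of at least 5 points marked 84 P450 CpGs in adipose tissue (3.26%, beside 3.02% of all), 18 in hypothalamus (0.849%, beside 0.852%) and 29 in liver (1.3%, beside 0.984%). Between control pools, a minimum of 20 points left 82 calls of 201 for adipose tissue against hypothalamus (3.83%, beside 6.84%), 167 of 401 for adipose tissue against liver (7.39%, beside 7.85%) and 171 of 346 for hypothalamus against liver (8.28%, beside 8.4%). P-values scaled by the mean excess of the tissues, an alternative chosen after seeing the data like the scaled Wald variances, left 104 (4.86%, beside 8.56%), 263 (11.6%, beside 11.1%) and 315 (15.2%, beside 15.1%) of these. Of 22 gene and CpG results, 21 lost the call under scaled p-values and 1, Cyp2c66 in liver, without the deepest 0.1% of CpGs. No direction reversed. No paired analysis was possible because each group was deposited as a pool. For the same reason leaving out each replicate was not run. Depth limits the hypothalamus most: 270 of its 2121 P450 CpGs had fewer than 20 reads in a pool, against 172 of 2577 in adipose tissue and 181 of 2223 in liver.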

Other observations

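Members share CpGs where genes overlap or adjoin: 169 of 2577 P450 CpGs in adipose tissue were assigned to more than 1 member, most visibly between Cyp26c1 and Cyp26a1 and between Cyp2c39 and Cyp2c38. Cyp2c68 was covered by 22084 control reads in adipose tissue over 11 shared CpGs, against 2168 in liver and 1429 in hypothalamus.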
